A study of Mus musculus with 6 samples.

Results

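The 10 genes examined here encode the enzymes and partner proteins that make coenzyme Q (ubiquinone) in the mouse heart. They were chosen by gene name (Pdss1, Pdss2, Coq2, Coq3, Coq4, Coq5, Coq6, Coq7, Coq8a and Coq9), and all 10 were found once each among the 54532 genes of the table. RNA was sequenced from the hearts of 3 Ctrl mice (Mrps5 fl/fl) and 3 cKO mice (Mrps5 fl/fl; MCM). Mrps5 encodes a small-subunit protein of mitochondrial ribosomes, and MCM is a MerCreMer transgene, driven by the αMHC promoter in cardiomyocytes, whose recombinase is switched on by tamoxifen. Mice of both genotypes received tamoxifen at 45 mg/kg on each of 5 days from an age of 8 weeks, and the labels place the sampling 12 weeks later, whereas the methods describe the mice as 12 weeks old. Ctrl mice carried no MCM, so the loss of Mrps5 and the presence of the activated recombinase cannot be told apart in this comparison. The question was what accompanied the loss of the mitochondrial ribosomal protein in the transcriptome of the heart, and here in its coenzyme Q pathway.

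Coenzyme Q is a lipid of the inner mitochondrial membrane that carries electrons from complex I, complex II and other dehydrogenases to complex III. Its polyprenyl tail is made by the enzyme of PDSS1 and PDSS2 and is joined to 4-hydroxybenzoate by COQ2, after which the ring is modified by COQ3, COQ5, COQ6 and COQ7 in an assembly that also holds COQ4 and COQ9. COQ8A is an atypical kinase-like ATPase needed for this assembly, and COQ8B is its paralog. The heart is rich in coenzyme Q, and inherited defects of these genes cause disorders of energy-demanding tissues.

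The promoter sequences of 4 members are shown: Coq8a had the largest change, Coq2 fell and holds the rarest of the motifs found, and the 2 subunits of the tail-making enzyme, Pdss1 and Pdss2, went opposite ways. Each sequence is taken from RefSeq (GRCm38.p6), reads 5′ to 3′ on the strand of the gene, and lies within the 250 bases before a transcription start. Of each window the longest stretch outside the exons that GENCODE M21 gives the gene itself is printed, and capitals mark the searched motifs, which are a GC box (GGGCGG, or CCGCCC where it lies on the other strand) before Coq8a and Pdss2 and the NRF1 core (GCGCATGC) before Coq2. Coq8a has 2 RefSeq starts among these promoters, named distal and proximal relative to each other. Both windows lie inside the annotated gene, which reaches further upstream, to base 180199602. The reads, counted over the whole gene, cannot be assigned to any start. The window of Coq2 likewise lies inside its annotated gene, which reaches further upstream, to base 100675140. It also overlaps Gm15777 on the other strand.

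Coq8a, distal start, chr1:180196076-180196270, minus strand: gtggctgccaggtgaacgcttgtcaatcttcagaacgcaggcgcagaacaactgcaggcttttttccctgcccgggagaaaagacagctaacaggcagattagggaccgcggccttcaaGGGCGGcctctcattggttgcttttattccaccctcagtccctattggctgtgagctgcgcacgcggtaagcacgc

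Coq8a, proximal start, chr1:180193486-180193602, minus strand: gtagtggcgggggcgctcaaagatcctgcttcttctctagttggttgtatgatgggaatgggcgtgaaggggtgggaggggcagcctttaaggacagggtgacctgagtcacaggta

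Coq2, chr5:100674285-100674506, minus strand: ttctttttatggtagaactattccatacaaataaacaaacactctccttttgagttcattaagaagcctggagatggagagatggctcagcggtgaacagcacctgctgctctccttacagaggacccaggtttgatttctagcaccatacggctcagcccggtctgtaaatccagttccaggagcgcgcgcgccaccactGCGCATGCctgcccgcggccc

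Pdss1, chr2:22895272-22895521, plus strand: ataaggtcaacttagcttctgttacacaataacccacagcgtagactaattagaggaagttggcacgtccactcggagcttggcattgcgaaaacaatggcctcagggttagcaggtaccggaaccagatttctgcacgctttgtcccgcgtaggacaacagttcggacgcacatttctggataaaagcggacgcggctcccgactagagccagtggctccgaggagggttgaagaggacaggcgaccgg

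Pdss2, chr10:43221236-43221485, plus strand: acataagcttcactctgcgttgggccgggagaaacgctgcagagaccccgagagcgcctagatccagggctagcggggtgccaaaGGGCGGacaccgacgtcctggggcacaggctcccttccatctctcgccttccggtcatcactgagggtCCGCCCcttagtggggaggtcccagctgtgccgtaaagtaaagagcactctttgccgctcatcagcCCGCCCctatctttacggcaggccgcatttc

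The window of Pdss1 lies partly in the annotated pseudogene A130006I12Rik, which covers 201 of its bases on the other strand. Of the 10 members all but Coq5, hence 9, had a promoter in the table, and 5 motifs were searched on both strands, with no overlap between the matches found. The GC box (GGGCGG) was found before Pdss2, Coq3, Coq6, Coq8a and Coq9, that is in 5 members, against 35.4% of all 27025 genes. The NRF1 core (GCGCATGC) was found, among the members, before Coq2 alone, against 2.56% of all genes, and the E-box (CACGTG) before Coq4, against 6.86%. The ERR motif (TCAAGGTCA, 0.422% of all genes) and the ATF4 element (TGATGCAA, 0.918%) were found before none of the 9. Members that fell (Coq2, Coq8a, Coq9, Pdss2) and members that did not pass the test (Coq3, Coq4, Coq6) both held matches.

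Depth, recovered from the values, was 15989322 to 24875499 reads per heart, and the members were counted from 175 reads (Coq4 in cKO replicate 1) to 11608 reads (Coq9 in Ctrl replicate 2). Mrps5 itself was at 1.12 to 1.31 FPKM (fragments per kilobase of gene, scaled to library size) in cKO and at 5.20 to 6.45 FPKM in Ctrl hearts. The library labelled cKO replicate 2 stood apart: Xist was at 10.7 FPKM there and at no more than 0.127 FPKM in the other hearts, and Uty, Eif2s3y, Ddx3y and Kdm5d of the Y chromosome were at 0 in that heart only, although the study describes its mice as male. The methods give the tissue as ventricle, yet atrial markers (Myl7, Myl4, Sln and Bmp10) also varied, with a summed level of 25.2 to 992 FPKM in Ctrl and 106 to 737 FPKM in cKO hearts, highest in Ctrl replicate 1 and cKO replicate 3. Cardiomyocyte markers were present in every heart, with none at 0. Results are given without these hearts where that changes them.

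In cKO hearts 5 of the 10 members fell, 1 rose and 4 did not pass the test, and Coq8a fell most. Changes are log2 fold changes of FPKM + 1, cKO minus Ctrl, tested with limma over the 12944 genes that averaged 0.5 FPKM or more, a filter that all 10 members passed by their levels in either group. At a Benjamini-Hochberg adjusted p under 0.05, 5 members fell (Coq2, Coq7, Coq8a, Coq9 and Pdss2), where 17.0% of all genes tested fell. Pdss1 alone rose, where 16.3% of all genes tested rose, and Coq3, Coq4, Coq5 and Coq6 did not pass. Over all genes 2110 rose and 2205 fell (48.9% of calls higher), and with libraries scaled without mtDNA-encoded genes 2649 rose and 1621 fell (62% higher), when Coq2, Coq8a and Coq9 were the 3 members lower and Pdss1 remained higher. The median log2 fold change was -0.26 for the members and -0.02 for all genes tested. Values of the groups did not overlap for 7 members lower in cKO and for 1 higher, against 26.4% and 24.8% of all genes tested. The summed level of the 10 members was 390, 439 and 374 FPKM in Ctrl replicates 1, 2 and 3 and 253, 270 and 271 FPKM in cKO replicates 1, 2 and 3, or 66.0% of the Ctrl mean. Since this is tissue RNA, fewer cardiomyocytes and less RNA per cardiomyocyte cannot be told apart.

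**Figure D1:**
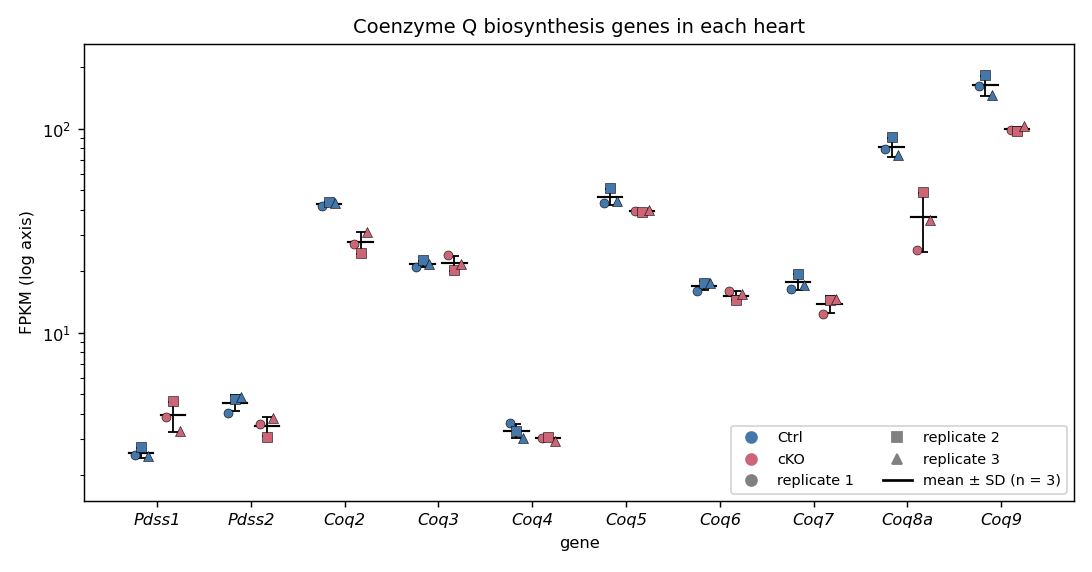
FPKM (log axis) of the 10 coenzyme Q biosynthesis genes in each heart, Ctrl in blue and cKO in red, with symbols for the replicate number and bars for the mean ± SD (n = 3 each). Coq9 and Coq8a are the highest in Ctrl, Pdss1 is the only member whose cKO hearts all lie above the Ctrl hearts, and the cKO hearts spread most for Coq8a, from 25.3 to 49.0 FPKM.

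The genes of the tail-making enzyme were among the lowest in level, and its subunits moved in opposite directions. Pdss1 (chromosome 2, 22895522 to 22940266, 11 exons) measured 2.51, 2.76 and 2.48 FPKM in Ctrl against 3.87, 4.61 and 3.30 FPKM in cKO hearts 1, 2 and 3. Every cKO heart was above every Ctrl heart, and the mean rose from 2.58 ± 0.155 to 3.93 ± 0.654 FPKM (SD, n = 3 each; log2 fold change 0.45, SE 0.11, limma adjusted p 0.0196). Pdss2 (chromosome 10, 43221486 to 43464882) measured 4.05, 4.75 and 4.82 FPKM in Ctrl against 3.57, 3.09 and 3.80 FPKM in cKO hearts 1, 2 and 3. Its groups did not overlap either, and it fell to 76.8% of the Ctrl mean (log2 change -0.30, SE 0.095, limma adjusted p 0.0473). The call of Pdss2 was close to the threshold and was lost in 10 of 15 alternatives (adjusted p 0.0429 to 0.138 over the alternatives), including those without Ctrl replicate 2 (0.138), Ctrl replicate 3 (0.137) and cKO replicates 1, 2 or 3 (0.087, 0.101 and 0.0569). That of Pdss1 was lost in 4 (0.0101 to 0.0646), including those without Ctrl replicate 1 (0.0611) and Ctrl replicate 3 (0.0646).

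Set against each other within a heart, the ratio of Pdss1 to Pdss2 was 0.619, 0.582 and 0.515 in Ctrl and 1.08, 1.49 and 0.869 in cKO replicates 1, 2 and 3. The ratio was higher in each cKO heart, by 0.97 on the log2 scale (exact permutation p 0.1, two-sided, the smallest that 3 against 3 allow), and a ratio within a heart does not depend on how libraries are scaled. It was highest in cKO replicate 2. Pdss1 overlaps Abi1 on the other strand by 194 bases, so its value may be affected, in either direction, by reads from the shared bases if strand was not used in counting.

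Coq2, whose product joins the tail to the ring precursor, was lower in each cKO heart. Coq2 (chromosome 5, 100654723 to 100675140) measured 41.9, 43.6 and 43.3 FPKM in Ctrl against 27.3, 24.6 and 31.3 FPKM in cKO hearts 1, 2 and 3. The Ctrl hearts lay within 2 FPKM of each other and above all cKO hearts, and the mean went from 42.9 ± 0.909 to 27.7 ± 3.37 FPKM, 64.6% of Ctrl (log2 change -0.62, SE 0.097, limma adjusted p 0.00449). The call held in all 15 alternatives.

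The ring-modifying enzymes changed less, and only the last hydroxylase passed. Coq3, the O-methyltransferase, measured 21.1, 22.6 and 21.8 FPKM in Ctrl against 23.9, 20.2 and 21.8 FPKM in cKO hearts 1, 2 and 3. The groups overlapped, and the 95% interval of the log2 fold change was -0.18 to 0.20 (adjusted p 0.949). Its share of the members' summed FPKM was 5.14% to 5.84% in Ctrl and 7.51% to 9.46% in cKO hearts. Coq5, the C-methyltransferase, measured 43.3, 51.0 and 44.4 FPKM in Ctrl against 39.4, 39.2 and 39.9 FPKM in cKO hearts 1, 2 and 3. All cKO hearts of Coq5 lay below all Ctrl hearts and within 1 FPKM of each other, yet the test was not passed (log2 change -0.22, 95% interval -0.41 to -0.03, adjusted p 0.0803, and no call in any of 15 alternatives).

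Coq6, a ring hydroxylase that draws electrons from ferredoxin, ranged from 16.0 to 17.5 FPKM in Ctrl against 14.4 to 16.0 FPKM in cKO (95% interval of the log2 fold change -0.33 to 0.03, adjusted p 0.168). Coq4, part of the enzyme assembly, ranged from 3.05 to 3.60 FPKM in Ctrl against 2.95 to 3.09 FPKM in cKO, with an interval of -0.28 to 0.08 (adjusted p 0.36). The cKO hearts of Coq6 lay just below the Ctrl hearts before rounding, those of Coq4 overlapped with them, and neither gene passed in any alternative. Coq4 and Coq6 overlap Trub2 and Fam161b on the other strand by 1010 and 177 bases. Their values may be affected, in either direction, by reads from the shared bases if strand was not used in counting.

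Coq7, the hydroxylase of the penultimate step, and Coq9, the lipid-binding protein that works with it, both fell, by different amounts. Coq9 (chromosome 8, 94838321 to 94854895) was the most abundant member per length and measured 162, 183 and 146 FPKM in Ctrl against 98.3, 97.2 and 103 FPKM in cKO hearts 1, 2 and 3. The cKO hearts lay close together and below all Ctrl hearts, and the mean went from 163 ± 18.6 to 99.4 ± 2.87 FPKM, 60.9% of Ctrl (log2 change -0.71, SE 0.097, limma adjusted p 0.00305, called in all 15 alternatives). Coq7 (chromosome 7, 118509659 to 118533356) measured 16.4, 19.5 and 17.2 FPKM in Ctrl against 12.3, 14.4 and 14.7 FPKM in cKO hearts 1, 2 and 3. It fell to 77.7% of the Ctrl mean (log2 change -0.34, SE 0.099, adjusted p 0.0368), but the call was lost in 8 of 15 alternatives (adjusted p 0.0337 to 0.112), including those without Ctrl replicates 1, 2 or 3 (0.0543, 0.112 and 0.0824) and without cKO replicates 1 or 3 (0.0875 and 0.0536). The ratio of Coq7 to Coq9 was 0.102, 0.107 and 0.118 in Ctrl and 0.125, 0.148 and 0.143 in cKO hearts, higher in each cKO heart by 0.35 on the log2 scale (exact permutation p 0.1, the smallest possible).

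Coq8a had the largest change of the members. Coq8a (chromosome 1, 180165238 to 180199602, 15 exons in the longest coding transcript) measured 79.2, 91.3 and 74.1 FPKM in Ctrl against 25.3, 49.0 and 35.6 FPKM in cKO hearts 1, 2 and 3. No cKO heart reached the Ctrl range, and cKO replicate 1 was the lowest and replicate 2 the highest of its group. The mean went from 81.5 ± 8.87 to 36.7 ± 11.9 FPKM, 45.0% of Ctrl (log2 change -1.18, SE 0.22, limma adjusted p 0.00863). The call held in 14 of 15 alternatives, and was lost only when Ctrl replicate 1 and cKO replicate 3, the hearts with the most atrial RNA, were both left out (log2 change -1.20, adjusted p 0.0682, and 0.00394 to 0.0682 over the alternatives). Coq8a overlaps Cdc42bpa by 366 bases and Coq9 overlaps Ciapin1 by 38 bases, each on the other strand. Coq8a made up 19.8% to 20.8% of the members' summed FPKM in Ctrl, and 18.2% and 13.1% in cKO replicates 2 and 3, with the lowest share in replicate 1.

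Coq8b, the paralog of Coq8a, moved the other way. Coq8b (chromosome 7, 27233023 to 27257950) measured 1.78, 1.31 and 1.36 FPKM in Ctrl against 6.01, 3.21 and 3.86 FPKM in cKO hearts 1, 2 and 3, from 152 to 190 reads and from 419 to 568 reads. Every cKO heart was above every Ctrl heart, and the mean rose from 1.48 ± 0.261 to 4.36 ± 1.46 FPKM, 2.94-fold (log2 change of FPKM + 1 1.08, SE 0.19, limma adjusted p 0.00661, called in all 15 alternatives). The order of the cKO hearts was inverse between the paralogs: replicate 1 was lowest for Coq8a and highest for Coq8b, and replicate 2 was highest for Coq8a and lowest for Coq8b. With 3 hearts this is a description only.

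The ratio of Coq8a to Coq8b was 44.4, 69.8 and 54.4 in Ctrl and 4.22, 15.3 and 9.23 in cKO replicates 1, 2 and 3. No cKO ratio came near the Ctrl range, and the difference was -2.72 on the log2 scale (exact permutation p 0.1, the smallest possible). In absolute terms Coq8a lost 44.9 FPKM on average, while the level of Coq8b remained far below it in every heart. Coq8b made up 1.41% to 2.20% of the FPKM of both paralogs in Ctrl and 19.2%, 6.15% and 9.78% in cKO replicates 1, 2 and 3.

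**Figure D2:**
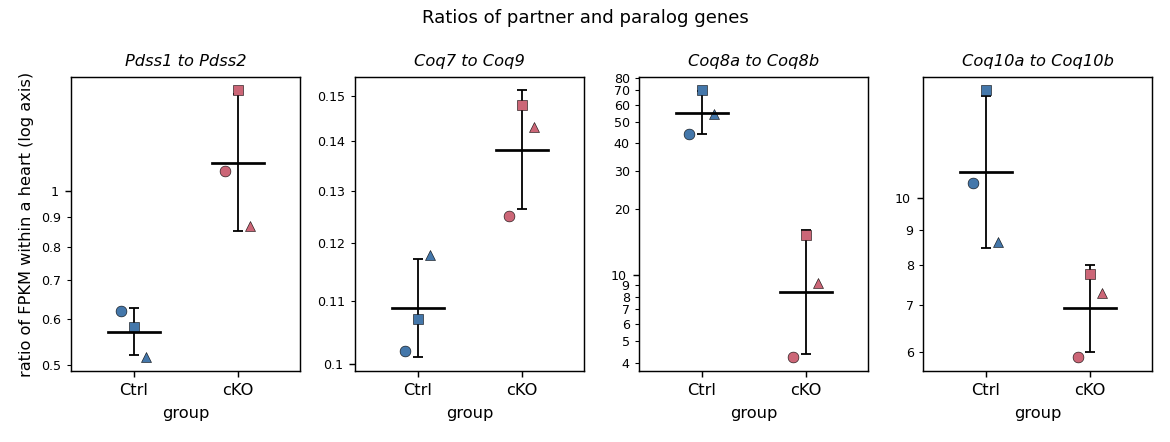
Ratio of FPKM within each heart for 4 pairs of genes, each panel with its own log axis, with Ctrl in blue, cKO in red, circles, squares and triangles for replicates 1, 2 and 3, and bars for the mean ± SD of the log2 ratio (n = 3 each). Groups do not overlap in any panel, and the shift is largest for Coq8a to Coq8b, from 44.4 to 69.8 in Ctrl to 4.22 to 15.3 in cKO.

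Coq10a and Coq10b encode lipid-binding proteins that help coenzyme Q work in the respiratory chain. Coq10a measured 85.6, 102 and 90.8 FPKM in Ctrl against 45.3, 52.5 and 53.6 FPKM in cKO hearts 1, 2 and 3. It was lower in each cKO heart and fell to 54.3% of the Ctrl mean (log2 change -0.87, SE 0.10, limma adjusted p 0.00198). Coq10b measured 8.17, 7.16 and 10.5 FPKM in Ctrl against 7.68, 6.77 and 7.35 FPKM in cKO hearts 1, 2 and 3, with overlapping groups (95% interval of the log2 fold change -0.52 to 0.11, adjusted p 0.27). The ratio of Coq10a to Coq10b was 8.64 to 14.3 in Ctrl and 5.89 to 7.77 in cKO hearts, a difference of -0.65 on the log2 scale (exact permutation p 0.1, the smallest possible).

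The order of the members by level, which FPKM allows because it is per length, shifted with these changes. In Ctrl the order was Coq9, Coq8a, Coq5, Coq2, Coq3, Coq7, Coq6, Pdss2, Coq4 and Pdss1, and the ranges of neighbours overlapped for Coq5 and Coq2 and for Coq7 and Coq6 only. In cKO the order was Coq9, Coq5, Coq8a, Coq2, Coq3, Coq6, Coq7, Pdss1, Pdss2 and Coq4. Overlapping neighbours were then Coq5 and Coq8a, Coq8a and Coq2, Coq6 and Coq7, and Pdss1 and Pdss2. Coq8a thus went from a level clear of all others to a wide range that overlapped those of Coq5 and Coq2, and Pdss1 from the lowest place to one shared with Pdss2. Among the cKO hearts the coefficient of variation was 32.4% for Coq8a and 16.7% for Pdss1, and 0.896% for Coq5 and 2.89% for Coq9.

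Genes that work with the pathway were examined as a list of 14, of which 12 could be tested. Of these 4 rose and 6 fell, with a median log2 fold change of -0.27. Coq8b, Hpdl and Fdxr were among those that rose. Hpdl, a mitochondrial dioxygenase linked to the supply of the ring precursor, went from 2.11 to 2.40 FPKM in Ctrl to 2.73 to 4.58 FPKM in cKO hearts (log2 change 0.50, adjusted p 0.0381), and the call was lost in 6 of 15 alternatives, including those without Ctrl replicates 1, 2 or 3 (adjusted p 0.0962, 0.0776 and 0.106) and cKO replicates 1 or 2 (0.0864 and 0.0553). Besides Coq10a, those that fell included Slc25a26, the carrier that brings the methyl donor S-adenosylmethionine into mitochondria, which went from 6.81 ± 0.356 to 4.17 ± 0.454 FPKM (log2 change -0.60, adjusted p 0.0036) and overlaps Lrig1 on the other strand by 144 bases.

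Pptc7, a mitochondrial phosphatase, fell from 42.3 ± 3.76 to 30.8 ± 3.35 FPKM (log2 change -0.45, adjusted p 0.0197, but 0.0671 without Ctrl replicate 2 and 0.0697 without Ctrl replicate 3). Fdxr, the reductase that feeds electrons to ferredoxin, was higher at 5.31 against 3.60 FPKM (adjusted p 0.018, and 0.0103 to 0.0611 over the alternatives), and the ferredoxin gene Fdx1 was lower at 14.4 against 18.7 FPKM (adjusted p 0.0232, and 0.0201 to 0.0798), both chosen for mention after their values were seen. Fdx1l, the ferredoxin gene also known as Fdx2, was at no more than 0.196 FPKM and was not tested.

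**Figure D3:**
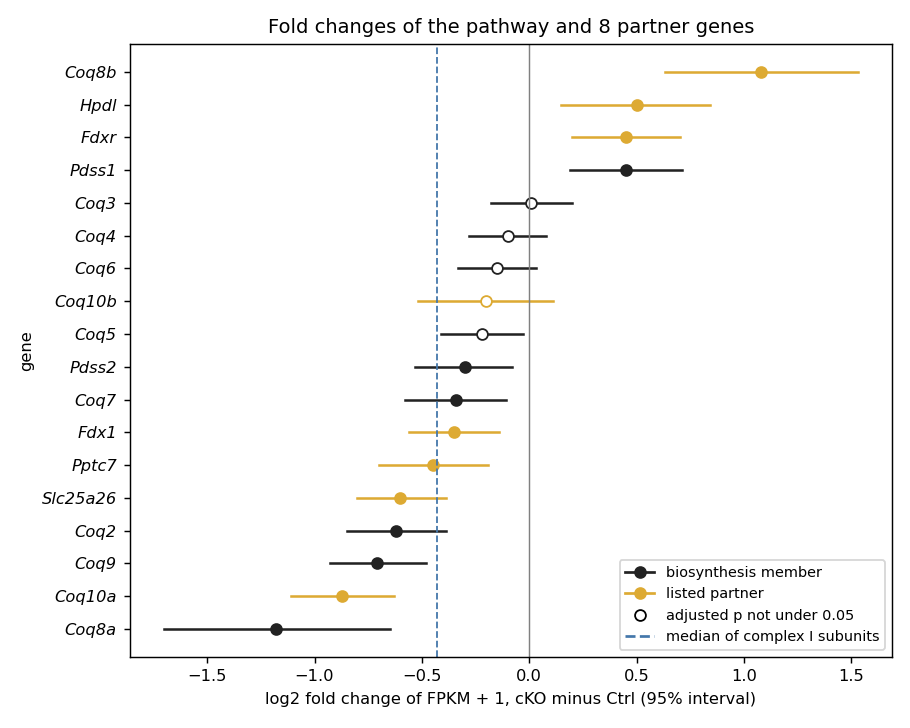
Log2 fold change of FPKM + 1 (cKO minus Ctrl) with its 95% interval for the 10 members in black and 8 of the 12 tested partner genes in yellow, filled where the adjusted p was under 0.05. Coq8a (-1.18) and Coq8b (1.08) lie at the ends, and the dashed line marks the median of the complex I subunits (-0.43).

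Genes of the steps before the pathway and of enzymes that use coenzyme Q were set beside the members. The mevalonate pathway, which supplies the isoprene units of the tail and also makes sterols, was tested with 9 of 10 genes: 3 fell, 6 did not pass, and the median was -0.08. Fdft1, squalene synthase, which draws farnesyl diphosphate towards sterols, fell from 11.7 ± 0.289 to 5.37 ± 0.612 FPKM (log2 change -1.01, adjusted p 0.000901). Pmvk and Acat2 were lower with log2 fold changes of -0.60 and -0.38 (adjusted p 0.0325 and 0.0467), and lost the call in 6 and 13 of 15 alternatives, Pmvk without Ctrl replicates 1 or 2 or cKO replicate 1 (0.0959, 0.0909 and 0.0676) and Acat2 whichever heart was left out (0.0509 to 0.134).

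Enzymes that reduce coenzyme Q, other than complex I, were tested with 11 of 12 genes, and 8 fell with a median of -0.42. Etfdh, which passes electrons from fatty acid oxidation to coenzyme Q, fell from 88.3 ± 2.92 to 49.8 ± 5.21 FPKM (log2 change -0.82, adjusted p 0.00183). Sqor, which oxidizes sulfide, and Sdhc, a membrane subunit of complex II, fell as well (log2 changes -0.55 and -0.51, adjusted p 0.00404 and 0.00762). Of 36 nuclear-encoded complex I subunits 28 fell, with a median of -0.43 and a range of -0.73 (Ndufv3) to -0.11. Ndufs1, which carries electrons within the complex, was also among the larger decreases (-0.66). Of 9 nuclear-encoded complex III subunits 8 fell, with a median of -0.40, led by Uqcr11 (-0.71), Uqcrfs1 (-0.59) and Uqcrq (-0.48).

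Coq8a (-1.18) lay below every listed nuclear-encoded subunit of complex I and complex III. Coq9 (-0.71) and Coq2 (-0.62) lay among the larger decreases of these subunits. Pdss1 (0.45) and Coq3 (0.01) lay above all of these subunits. Coq4 (-0.10) did so narrowly, and only on the scale of FPKM + 1. As a share of the Ctrl mean it was at 91.4%, below the 92.3% of the complex I gene Ndufc2. These are positions of fitted values, and differences between the lists were not tested.

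**Figure D4:**
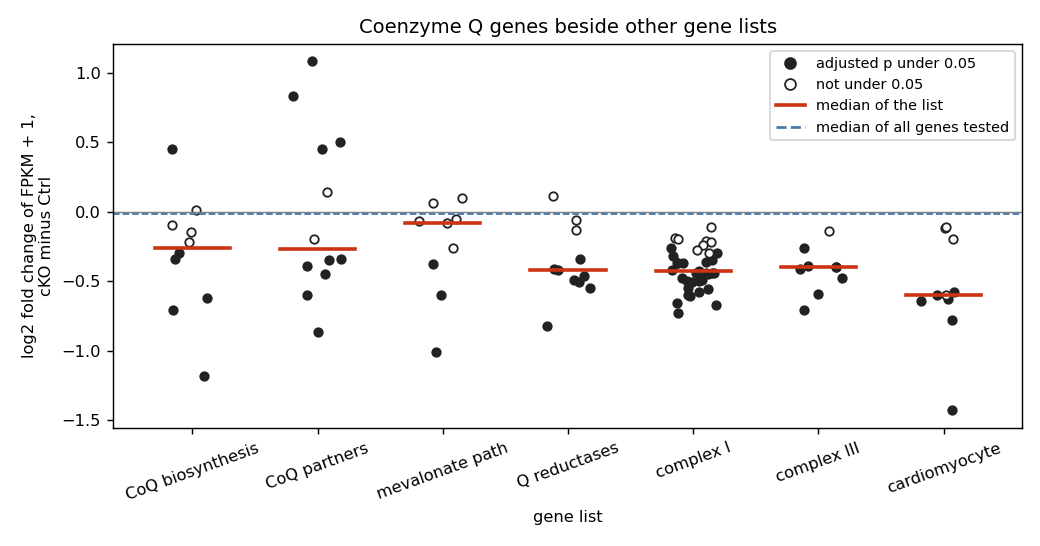
Log2 fold change of FPKM + 1 (cKO minus Ctrl) of each tested gene by list, filled where the adjusted p was under 0.05, with red bars for the median of each list and a dashed line for the median of all genes tested. The coenzyme Q genes spread from -1.18 to 0.45 around a median of -0.26, while the 36 complex I subunits all lie between -0.73 and -0.11.

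Markers of cell types were examined beside these genes. Of 10 cardiomyocyte markers 6 fell and 4 did not pass, with a median of -0.60, and their summed level was 19185 to 24182 FPKM in Ctrl and 12384 to 20127 FPKM in cKO hearts. Among the cKO hearts that sum had the same order as Coq8a, lowest in replicate 1 and highest in replicate 2. Myh6, Tnnt2, Actc1, Myl2, Myl3, Tnnc1 and Actn2 each had that order. Ryr2 was instead lowest in replicate 2, and Pln and Tnni3 were highest in replicate 3. Endothelial markers were lower too (3 of 5 fell, summed level 109 to 127 FPKM in Ctrl and 71.2 to 86.0 FPKM in cKO hearts). Of the fibroblast markers 1 of 6 fell and of the macrophage markers 1 of 5, shares near the 17.0% of all genes tested. The summed level of the fibroblast markers was still lower in each cKO heart (667 to 694 and 400 to 564 FPKM). It was 73.4% of the Ctrl mean, against 74.8% for the cardiomyocyte markers, but the median log2 fold change was -0.20 against -0.60. Gsn, which did not pass (limma adjusted p 0.0584), held most of the fibroblast sum, 458 of 681 FPKM in Ctrl on average. Gsn and Dcn were at 70.6% and 66.7% of their Ctrl means. Dpt, Tcf21, Pdgfra and Lum were at 84.7%, 86.7%, 96.5% and 106%. Summed levels of the macrophage markers overlapped between the groups (94.0 to 132 and 82.7 to 118 FPKM). Of 4 tested mural cell markers 1 fell and 1 rose (146 to 165 and 94.4 to 121 FPKM), and the 4 erythroid markers (818 to 1894 and 537 to 1469 FPKM, limma unadjusted p 0.0763 or more) and 4 atrial markers (0.304 or more) did not pass. No marker was at 0 in a whole group, and Bmp10 was at 0 in Ctrl replicate 3. The part of these shifts in the change of Coq8a and the other members was not tested.

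Among 11420 other protein-coding genes, those whose course over the 6 hearts was most like that of Coq8a were Mybpc2, Echdc3, Hopx, Lsmem1 and Crhr2. Their log2 values, each taken from its Ctrl mean, differed from those of Coq8a by a root mean square of 0.106 to 0.146. Each was lowest in cKO replicate 1 and, among the cKO hearts, highest in replicate 2. Since these genes were picked for likeness to Coq8a over the same hearts, that shared order follows largely from the choice. Hopx, the most abundant of them, spanned 83.8 to 106 FPKM in Ctrl against 33.3 to 54.2 FPKM in cKO.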

How the data were processed

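RNA of 6 mouse hearts was analysed, 3 Ctrl and 3 cKO, grouped and numbered by the sample titles, with each value column matched to its sample by name. Per the labels and methods, the authors prepared poly-A selected paired-end libraries, aligned reads with HISAT2 2.0.5 and counted them per gene with featureCounts 1.5.0-p3. From counts and gene lengths the authors computed the deposited FPKM values. The gene length, another deposited value of the authors, was taken as given. Use of strand and of multiply aligned reads was not stated. The labels name the build mm9, but of 54495 gene identifiers shared with GENCODE M21 (GRCm38), 53585 matched in both start and end, and GRCm38 coordinates are given.

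FPKM times length was a whole multiple of 1 step in each library for 100% of values up to 1000 reads (within 0.01 of a read), which gave the reads per gene. The library sizes used for FPKM were 0.913 to 0.980 times the reads in Ctrl and 1.06 times in cKO, so the deposited values had been scaled between samples. No 2 hearts of a group agreed within sampling noise (mean chi-square per gene 14.3 to 47.3). The precision of low genes is limited by their reads, and nothing says that p-values cover more than the spread between these animals.

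Values were tested as log2(FPKM + 1), which understates changes of low genes, with limma 3.58.1 in R 4.3.3 (2 groups, no covariates, intensity trend, two-sided) on genes averaging 0.5 FPKM or more, with Benjamini-Hochberg adjustment over all of them and a threshold of 0.05. The authors' own test was DESeq2 on counts. The procedure was tested on simulated data. Ratios within a heart were compared by exact permutation (scipy 1.17.1). Promoters were the 250 bases before each RefSeq start. Alternatives were another pseudocount, 2 other filters, 2 scalings, voom on recovered reads, no trend, a replicate block, each heart left out and, chosen after seeing the data, the most atrial heart of each group left out.

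Named genes are Mrps5, all members, the paralogs Coq8b, Coq10a and Coq10b, up to 3 called genes per direction in each pathway list, and the 5 genes most like the member with the largest change. A few named by this rule are left out of the text but stay in the counts of their lists. The 5 genes most like that member were not refitted under the alternatives. Members and lists were chosen with earlier results of these data known. Of the members, 5 of 10 overlap a tested gene on the other strand.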

Additional observations from a re-analysis of the deposited data

How the results depend on the processing

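Coq2 and Coq9, together with Mrps5, Coq8b and Coq10a, kept direction and call under all 15 alternatives. No call was gained by any of 30 genes (Mrps5, the members and the genes chosen from the pathway lists) in 450 comparisons, and 50 calls were lost. Some fits had fewer samples or more genes, but calls were also lost with the same hearts and genes. Pdss2 was an example, with a block on replicate number (limma adjusted p 0.0694). The cause of the losses was not tested. Without the filter, 3 members were lower and 0 higher (limma over 26855 genes, Pdss1 at an adjusted p of 0.0528), and with scaling without mtDNA-encoded genes 3 were lower, Coq2, Coq8a and Coq9. That scaling gave 2649 genes higher and 1621 lower in all, against 2110 and 2205. Voom on the recovered reads called 4501 genes, with 5 members lower and 1 higher. Leaving out 1 heart gave 3 to 4 members lower and 0 to 1 higher, and over all genes 1396 to 1977 higher and 1423 to 2011 lower; the counts were lowest without Ctrl replicate 3 (1396 higher, 1432 lower) and Ctrl replicate 2 (1423 lower). Without Ctrl replicates 1 or 3 Pdss1 had an adjusted p of 0.0611 and 0.0646. Without cKO replicate 2, 4 members were lower and 1 higher. With the most atrial heart of each group left out, 2 members, Coq2 and Coq9, were lower and 0 higher (limma, Pdss1 at 0.0517), and 995 genes were higher and 1019 lower in all.

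Coq3, near 0, ranged from -0.05 (without cKO replicate 1) to 0.06 (without cKO replicate 2) with 1 heart left out, was at -0.0158 without Ctrl replicate 1 and changed sign also to -0.0119 without the most atrial hearts. The differences of the 4 ratios within a heart stayed within the spread between replicates under each alternative run for them. A block on replicate number gave 1874 genes higher and 1982 lower, with 4 members lower and 1 higher, and Pdss2 lost its call (adjusted p 0.0694). Deviations of same-numbered hearts correlated at -0.055, 0.175 and -0.015 for replicates 1, 2 and 3, and not every heart correlated best with its own number, so the numbers were not taken as pairs. Depth limits what can be said of Pdss1, Coq4 and Coq8b, counted from 152 to 568 reads per heart.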
